A study of Mus musculus with 9 samples.

Results

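The short arms of mouse chromosomes are so small that the centromere lies at one end of each chromosome, and the first 3 Mb of the mm10 assembly stand for this unsequenced part. The chromosome-start regions described here are peaks of open chromatin whose centre lies below 7 Mb of chromosomes 1 to 19, which is the sequenced stretch closest to the centromere. Open chromatin was measured by ATAC-seq, in which a transposase cuts accessible DNA, in C3H/10T1/2 cells, an established mouse line used as mesenchymal progenitor cells (MPCs). Overlapping or touching peaks of 9 libraries merged into 132893 regions. Of these, 95142 held a peak in at least 2 of 3 libraries of any line and were kept as consensus regions. The chromosome-start regions were 3090 of the 95142 (3.25%), chosen by position alone, and the other 92052 were used for comparison.

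The study holds 3 libraries of WT cells, 3 of the Atrx knockout (KO) clone B10 and 3 of the Atrx KO clone G7. The KO clones came from CRISPR-Cas9 editing with 2 different guides against Atrx, and 1 clone was kept from each guide. The WT line was an isogenic control that had received Cas9 without a guide against the gene. Each line is therefore 1 clone or population, both clones are compared with the same WT libraries, and all cells share the C3H/10T1/2 background. The labels do not say whether the libraries of a line came from separate cultures, so the p-values measure the spread between these libraries, which may be technical. A peak stood at the Atrx promoter in all 9 libraries, which says nothing about the edit, since a small edit in an exon need not close the promoter.

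ATRX, an X-linked ATPase of the SWI/SNF-like family, remodels chromatin. With DAXX it deposits the histone variant H3.3 at repetitive DNA, including pericentromeric heterochromatin and telomeres, and it is found at pericentromeric foci in mouse cells. The DNA around a mouse centromere consists of minor satellite at the centromere itself and long arrays of major satellite beside it. The major satellite arrays are packed as heterochromatin marked by H3K9 trimethylation, which SUV39H enzymes write. Most satellite DNA of both kinds is missing from the assembly, so short-read data show its edges and the unique sequence next to it.

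The libraries held 74643 to 86650 peaks on the autosomes, with the highest numbers in B10, and each list reached down to a q-value of about 0.05. Sequencing depth is unknown from peak lists, so a region without a peak is one where none was detected. Of the 10 markers of mesenchymal progenitors or fibroblasts, 9 had a promoter peak in all 9 libraries, and Nt5e had none. Of the markers of other cells, Ptprc, Cd3e, Epcam, Cdh1, Sox10 and Neurod1 had no promoter peak, while Pecam1 had one in 9 libraries, Spi1 in 5 and Cdh5 in 2.

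The sequences below are read from the plus strand of GRCm38, the assembly behind mm10. The first pair shows the repeat that fills the sequenced start of chromosome 9, at chr9:3002001-3002234 and chr9:3002235-3002468. It is shown because peaks over it were called in every library. It recurs with a period of 234 bp, the unit length of the mouse major satellite. Capitals mark the 13 bases at which these neighbouring copies differ.
first copy: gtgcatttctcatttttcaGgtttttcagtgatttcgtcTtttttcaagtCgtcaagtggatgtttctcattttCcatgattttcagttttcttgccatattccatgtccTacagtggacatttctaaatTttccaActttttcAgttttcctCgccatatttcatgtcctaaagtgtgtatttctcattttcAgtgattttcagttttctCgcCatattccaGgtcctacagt
second copy: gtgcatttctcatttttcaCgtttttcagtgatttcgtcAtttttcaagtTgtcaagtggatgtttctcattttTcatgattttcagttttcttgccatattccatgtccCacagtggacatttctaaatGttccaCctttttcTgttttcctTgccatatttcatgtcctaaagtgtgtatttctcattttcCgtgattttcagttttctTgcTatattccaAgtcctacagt

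The next sequences are the 200 bp around the summit of regions that held a peak in KO libraries and in no WT library, since they carry the gains described further on. The regions near Vmn1r3 (chr4:3231008-3231207), Ucma (chr2:4958184-4958383) and 1700008P02Rik (chr3:6888342-6888541) were gained in both clones, and those near Gm8797 (chr3:5811263-5811462) and Xkr4 (chr1:3926326-3926525) held a peak in each of the 3 B10 libraries. Capitals mark CTTTGT, a core of SOX sites, and TGANTCA, the AP-1 site, on either strand. TGANTCA reads the same on both strands, so a site is counted once. The windows of Vmn1r3 and Ucma hold neither, nor do those of the other 3 regions gained in both clones that are named further on. The windows of Gm8797 and Xkr4 are a choice of windows that hold both. Of other regions opened in B10, the windows in chr3:6865900-6866351 and chr1:3790438-3791131 hold neither. The window in chr1:3212593-3213468 holds CTTTGT but not TGANTCA. Of the chromosome-start regions gained in B10, 14.96% held TGANTCA, against 22.3% of all regions.
Vmn1r3: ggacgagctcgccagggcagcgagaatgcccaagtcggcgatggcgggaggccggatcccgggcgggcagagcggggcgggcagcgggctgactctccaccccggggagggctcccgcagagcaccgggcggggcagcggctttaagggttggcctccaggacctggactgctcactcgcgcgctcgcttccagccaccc
Ucma: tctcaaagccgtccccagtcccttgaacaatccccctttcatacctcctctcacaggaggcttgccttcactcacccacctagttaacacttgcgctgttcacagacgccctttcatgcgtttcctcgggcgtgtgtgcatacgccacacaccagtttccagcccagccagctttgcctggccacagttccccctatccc
1700008P02Rik: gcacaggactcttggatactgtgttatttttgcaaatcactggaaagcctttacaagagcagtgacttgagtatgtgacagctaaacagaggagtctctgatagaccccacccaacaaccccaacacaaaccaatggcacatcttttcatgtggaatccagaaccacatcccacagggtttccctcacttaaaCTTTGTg
Gm8797: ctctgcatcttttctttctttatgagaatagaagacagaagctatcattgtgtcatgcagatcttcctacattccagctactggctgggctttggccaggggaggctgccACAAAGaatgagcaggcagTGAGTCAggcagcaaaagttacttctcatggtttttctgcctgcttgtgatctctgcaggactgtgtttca
Xkr4: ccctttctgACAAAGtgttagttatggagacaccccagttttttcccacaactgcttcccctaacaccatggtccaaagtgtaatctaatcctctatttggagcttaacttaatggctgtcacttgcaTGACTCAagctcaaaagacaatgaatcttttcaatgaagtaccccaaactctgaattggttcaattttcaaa

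The last group was lost or weaker in both clones and is a choice of windows that hold a motif. The windows near Zdhhc14 (chr17:5476032-5476231) and Tiam2 (chr17:3288485-3288684) belong to regions without any peak in the 6 KO libraries, and capitals mark the core of the CTCF site in them. Of the other 4 lost regions named further on, that of Rbfox1 holds 2 matches of CTTTGT and those of Gdi2, Castor1 and Vip hold no motif searched. Over all 91 chromosome-start regions lost in both clones, the CTCF core was found in 9 (9.89%), against 13.3% of all regions. The windows of Osbp2 (chr11:3738866-3739065), Rhod (chr19:4441853-4442052) and Myct1 (chr10:5591755-5591954) kept a peak in every library at a lower fold enrichment (signal over background), and capitals mark TGANTCA.
Zdhhc14: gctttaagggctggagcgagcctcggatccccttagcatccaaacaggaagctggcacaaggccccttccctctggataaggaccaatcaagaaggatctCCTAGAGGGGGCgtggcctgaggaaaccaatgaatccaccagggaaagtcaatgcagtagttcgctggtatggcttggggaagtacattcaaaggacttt
Tiam2: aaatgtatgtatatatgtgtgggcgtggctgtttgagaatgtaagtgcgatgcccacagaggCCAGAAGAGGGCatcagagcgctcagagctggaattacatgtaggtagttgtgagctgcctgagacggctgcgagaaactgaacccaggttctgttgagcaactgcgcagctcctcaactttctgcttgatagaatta
Osbp2: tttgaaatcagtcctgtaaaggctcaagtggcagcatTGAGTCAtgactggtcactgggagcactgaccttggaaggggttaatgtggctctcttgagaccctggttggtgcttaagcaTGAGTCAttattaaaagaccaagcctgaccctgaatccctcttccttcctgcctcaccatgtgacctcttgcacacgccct
Rhod: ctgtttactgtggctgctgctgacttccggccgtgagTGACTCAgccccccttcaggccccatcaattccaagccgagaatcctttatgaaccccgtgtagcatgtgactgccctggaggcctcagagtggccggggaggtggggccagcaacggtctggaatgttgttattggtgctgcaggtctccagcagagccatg
Myct1: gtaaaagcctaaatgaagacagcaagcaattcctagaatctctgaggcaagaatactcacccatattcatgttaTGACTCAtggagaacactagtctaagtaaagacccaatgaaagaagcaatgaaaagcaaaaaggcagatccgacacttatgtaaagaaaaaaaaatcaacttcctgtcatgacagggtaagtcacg

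Chromosome starts were about as rich in open chromatin as the rest of the genome, but unevenly so. The first windows covered 75.4 sequenced Mb, which is 3.15% of the sequenced autosomes, and held 41.0 regions per Mb against 39.7 in the rest, a ratio of 1.03. The ratio was above 1 on 9 of the 19 chromosomes. Chromosome 19 stood highest with 409 regions and a ratio of 2.33, followed in number by chromosome 11 with 333. Chromosomes 1, 3 and 9 held 64, 57 and 56 regions, with ratios of 0.440, 0.437 and 0.365. Chromosome 14 held 2 regions, although 84 coding genes are annotated there, and 61.9% of its first window is soft-masked repeat. The windows held 10.6 coding genes per Mb against 8.61 elsewhere, and 3.88 regions per coding gene against 4.61. The centre closest below the 7 Mb limit lay 0.894 kb inside it, and the closest one above it lay 2.14 kb outside.

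To ask whether loss of ATRX went with more open chromatin near centromeres, the share of regions with a peak was compared with that on the rest of the same chromosomes. In WT, 73.6%, 73.5% and 72.6% of the chromosome-start regions held a peak. In B10, the shares were 81.3%, 85.1% and 80.3%, and in G7 they were 76.1%, 76.9% and 75.8%. All 6 KO libraries lay above all 3 WT libraries. The rest of the same chromosomes, weighted by the number of chromosome-start regions on each, did not separate G7 from WT, with 74.8%, 76.6% and 75.1% in WT and 74.8%, 76.1% and 74.6% in G7, while B10 had 78.3%, 82.8% and 78.5%.

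The difference between both shares is called the relative presence, in percentage points. It was −1.29, −3.07 and −2.50 in WT, 3.01, 2.39 and 1.82 in B10, and 1.27, 0.790 and 1.20 in G7. Chromosome starts thus held fewer peaks than their chromosomes in every WT library and more in every KO library. The mean was −2.29 ± 0.912 in WT, 2.41 ± 0.593 in B10 and 1.09 ± 0.259 in G7 (SD, n = 3 each). B10 exceeded WT by 4.69 points and G7 exceeded WT by 3.37 points, each with an exact two-sided permutation p of 0.1 (adjusted p = 0.1), the smallest that 3 against 3 libraries allow, so no such test can pass 0.05. Regions enter through any line, and those kept through B10 alone (363) or G7 alone (155) of the 3090 lower the share in WT, though the same rule holds for the rest of the chromosomes. In a setting chosen after seeing the data, only regions with a peak in at least 2 WT libraries were kept. The relative presence then exceeded WT by 3.30 points in B10 and by 1.97 points in G7 (exact permutation p = 0.1 each). That rule sets the WT share high in both parts, so these values describe mainly how many WT regions kept a peak. Of 2312 such chromosome-start regions, 2016 had a peak in at least 2 B10 libraries and 1984 in at least 2 G7 libraries. Under all 26 alternative settings the sign stayed the same, from 3.11 to 9.17 points in B10 and from 1.97 to 5.24 points in G7. The order of the clones was not stable. B10 exceeded G7 by 1.32 points (exact permutation p = 0.1, adjusted p = 0.1), but by 0.367 points without chromosome 3, and G7 stood higher, at −0.227 for B10 minus G7, without chromosomes 1 and 3, settings chosen after seeing the data.

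**Figure D1:**
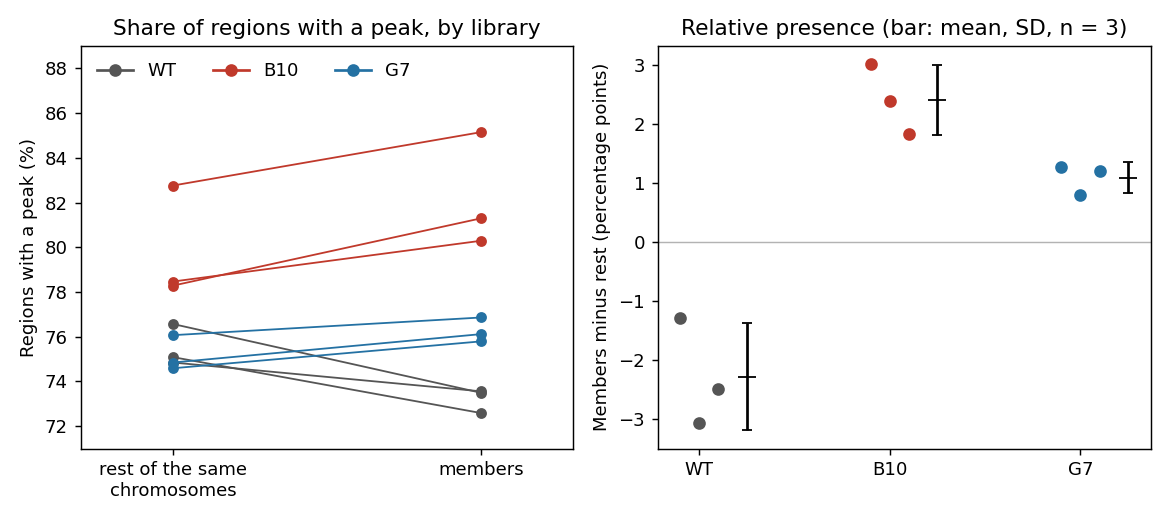
Left, the share (%) of regions with a peak in each library for the rest of the same chromosomes and for the chromosome-start regions (members), joined by a line per library. Right, the difference of both shares in percentage points, with points for libraries and bars for the mean and SD (n = 3); WT libraries lie below 0 and all 6 KO libraries above 0.

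The 3090 regions were next called by presence. Gained regions are those with 0 of 3 WT libraries and 2 or 3 of the 3 libraries of a clone peaked, and lost regions are those with 2 or 3 WT libraries and 0 of the clone. In B10, 361 chromosome-start regions were gained (11.7%, where 10.4% of all regions were called) and 163 were lost (5.28%, against 7.59% of all). In G7, 216 were gained (6.99%, against 5.61%) and 173 were lost (5.60%, against 7.43%). Both clones gained 108 regions (3.50%, against 2.93%) and both lost 91 (2.95%, against 4.37%). In B10, losses thus took a smaller share than in the background by more points than gains took a larger one. A peak in all 6 KO and in no WT library was found in 41 regions (1.33%, against 1.07%), and one in all 3 WT and no KO library in 25 (0.809%, against 1.63%). The largest set, 1556 regions (50.4%), was open in all 9 libraries, against 49.3% on the rest of the same chromosomes. Peaks were also ranked in percent by q-value within their library, with a high rank for a strong peak. The median rank was 69.1 for regions open in all 9 libraries. It was 25.8 for those gained in both clones and 17.2 for those lost in both, so most such calls rest on weak peaks.

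Chromosomes 1 and 3 carried part of the gains in B10. Without these chromosomes, 290 regions were gained in B10 (9.77%), 206 in G7 (6.94%) and 99 in both (3.33%). The 10.4% of all regions gained in B10 includes chromosomes 1 and 3, and a share without them was not counted. Regions open in B10 alone, with no peak in WT or G7, numbered 162 (5.24%, against 5.05% of all), and 107 (3.60%) without these chromosomes. Open in G7 alone were 56 (1.81%, against 1.57%), and missing in B10 alone or in G7 alone were 35 (1.13%, against 1.7%) and 46 (1.49%, against 1.7%). The counts also depend on which libraries are used, and leaving 1 out changes the rule of the call. Without a WT library, a gain needs no peak in only 2 WT libraries, and a loss needs a peak in both. Without a clone library, a gain needs a peak in both libraries left, and a loss needs none in those 2. Shares over all regions under these settings were not counted, so the values below are not particular to chromosome starts. Without WT replicate 1, gains came to 17.7% in B10, 11.1% in G7 and 6.95% in both, and losses in both to 1.92%. Without B10 replicate 1 or 2, gains in B10 came to 7.52% or 6.79%, and without G7 replicate 1, 2 or 3, gains in G7 came to 4.14%, 4.08% or 4.35%, with 2.32% gained in both without G7 replicate 2. Without WT replicate 2 or 3, losses came to 2.19% or 2.42% in B10, 2.80% or 3.05% in G7 and 1.35% or 1.44% in both.

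The chromosomes differed widely. The relative presence lay above WT in all 3 B10 libraries on 8 of the 18 chromosomes with at least 10 regions and below WT on 3, and in G7 it lay above on 9 and below on 3. Both clones lay above WT on 7 chromosomes, which were chromosomes 2, 3, 4, 5, 6, 9 and 15, and both lay below WT on 0. Set against every window of 4 Mb along the autosomes (600 windows), B10 lay above WT in 29.3% and below in 31.5%, G7 above in 24.3% and below in 26.8%, both above in 14.2% and both below in 16.5%. The median difference of the 18 first windows was 2.94 points in B10 and 4.88 in G7, against −0.118 and 0.164 over all windows. All 3 B10 libraries lay above all 3 G7 libraries on 7 chromosomes (26.7% of all windows) and below on 2 (26.3%).

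**Figure D2:**
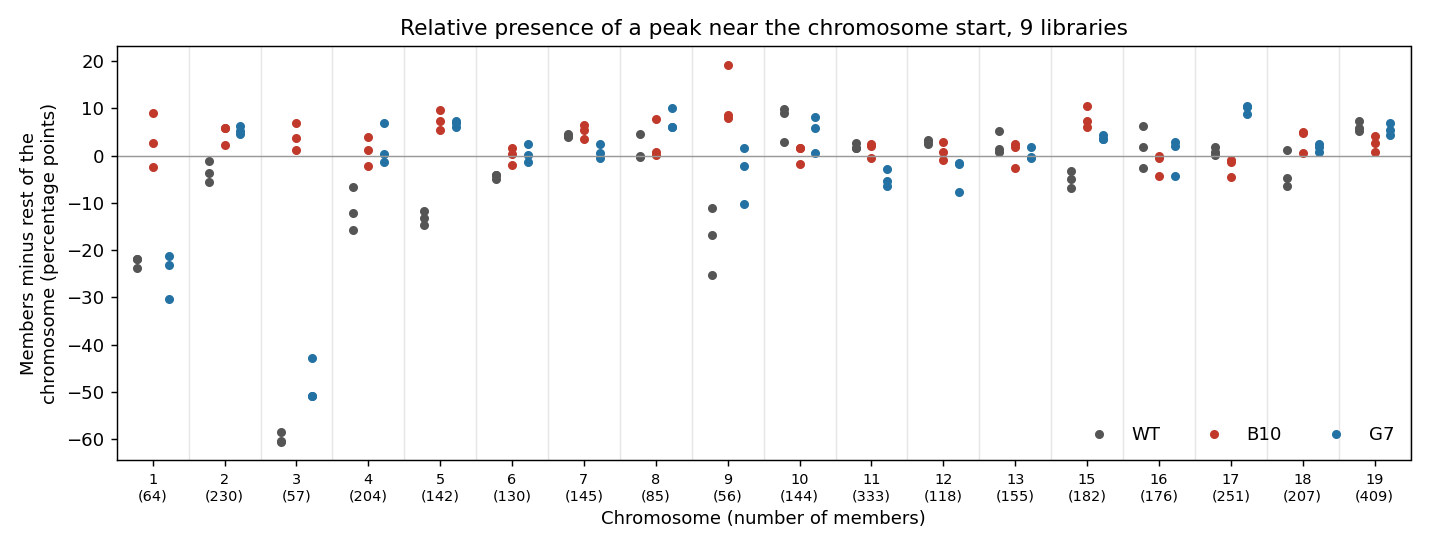
Relative presence in percentage points for each library on the 18 chromosomes with at least 10 chromosome-start regions (their number in brackets), grey WT, red B10, blue G7. Chromosome 3 lies at −59.8 on average in WT and 3.89 in B10, and chromosome 1 at −22.5 in WT, 3.07 in B10 and −24.9 in G7.

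**Figure D3:**
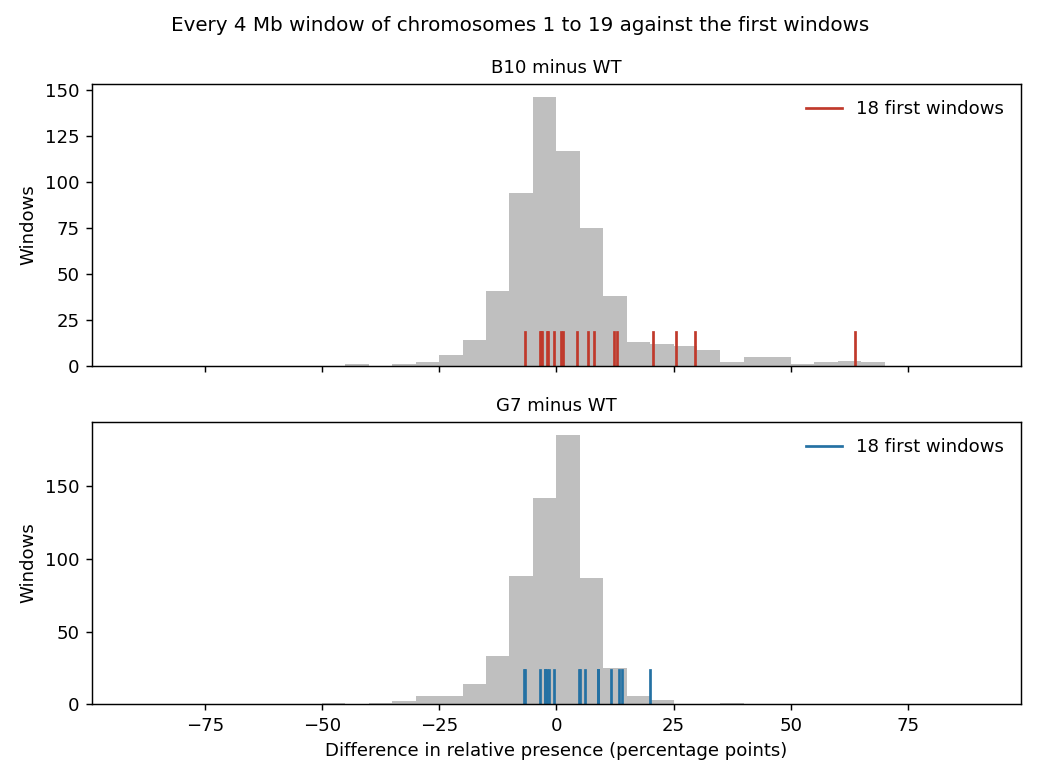
Histograms of the difference in relative presence from WT (percentage points) over 600 windows of 4 Mb, B10 above and G7 below, with coloured lines for the 18 first windows of the chromosomes. The first window of chromosome 3 lies at 63.6 in B10.

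In B10, chromosome 3 showed the largest change of the 18 chromosomes with at least 10 regions, while in G7 chromosomes 5, 9 and 4 differed more from WT. Its 57 regions are gene-poor, with 5 coding genes in the window, a median distance of 192 kb to the nearest coding start site against 20.9 kb on the rest of the chromosome, and a median GC content of 44.0% against 47.5%. A peak was present in 13.5 ± 1.01% of them in WT, 83.6 ± 1.01% in B10 and 27.5 ± 3.65% in G7 (SD, n = 3 each). The relative presence exceeded WT by 63.6 points in B10, which ranked 4 of the 600 windows, and by 11.6 points in G7. Of the 57 regions, 48 were gained in B10 and 8 in G7, 7 of these in both, and 37 were open in B10 alone, meaning 0 of 3 WT and 0 of 3 G7 libraries. Since 41 of the 57 were kept through B10 alone, the high share in B10 and the low one in WT are in large part set by how regions were kept. Of the 8 regions with a peak in at least 2 WT libraries, 7 had one in at least 2 B10 libraries and 7 in at least 2 G7 libraries.

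Along chromosome 3, B10 lay above WT in each of the 4 steps of 1 Mb in the window. From 3 to 4 Mb, 2 to 3 of 14 regions held a peak in WT libraries, 10 to 12 in B10 and 4 to 7 in G7. From 4 to 5 Mb, 0 of 4 held one in WT and G7 and 3 to 4 in B10, and from 5 to 6 Mb, 4 of 16 in WT, 13 to 14 in B10 and 6 to 7 in G7. From 6 to 7 Mb, 1 of 23 held a peak in each WT library, 19 to 20 in B10 and 3 to 4 in G7. Outside the window, from 7 to 8 Mb, B10 still lay higher, with 18 to 20 of 21 regions against 13 to 15 in WT and 9 to 10 in G7. From 8 to 9 Mb the lines overlapped, with 42 to 46 of 56 regions in WT, 40 to 44 in B10 and 36 to 43 in G7. The regions that were open everywhere included the promoter of Pex2, a peroxisome biogenesis factor, at chr3:5575688-5576806. Its fold enrichment, the signal of the highest peak over the background, was 15.8, 16.6 and 15.1 in WT, 17.9, 16.7 and 15.9 in B10, and 16.3, 16.0 and 15.4 in G7, with overlapping lines.

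In the same window, B10 held peaks that WT lacked. The promoter of Hnf4g, a nuclear receptor gene, at chr3:3507660-3508444 held a peak of 5.61, 3.69 and 5.18 in B10 and none in WT or G7. The region near Gm8797 at chr3:5811078-5811529 held 13.1, 15.4 and 16.2 in B10, 3.47 in G7 replicate 3 and no peak in the other 5 libraries. The region at chr3:6865900-6866351 held 14.7, 15.9 and 16.1 in B10 and 5.52, 7.23 and 7.25 in G7, so that G7 had the lower peaks of both clones.

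Chromosome 1 differed from WT in B10. A peak was present in 53.1 ± 1.56% of its 64 regions in WT, 83.3 ± 8.02% in B10 and 45.3 ± 5.63% in G7 (SD, n = 3 each). The relative presence exceeded WT by 25.5 points in B10 and differed by −2.40 points in G7, whose libraries overlapped WT. Of the 23 regions gained in B10, 18 were open in B10 alone, and 25 of the 64 regions were kept through B10 alone, which lowers the share in the other lines. From 3 to 4 Mb, around Xkr4, 11 to 12 of 13 regions held a peak in B10, 1 to 2 in WT and 0 in G7. The region at chr1:3926068-3926923 held 16.4, 14.5 and 15.8 in B10, and that at chr1:3790438-3791131 held 15.4, 14.1 and 14.1, with no peak in WT or G7. The opposite was seen at chr1:3934272-3934846, with 6.18, 9.89 and 7.96 in WT and none in the 6 KO libraries.

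Chromosome 9 held more peaks in both clones. A peak was present in 60.1 ± 6.27% of its 56 regions in WT, 89.9 ± 6.27% in B10 and 74.4 ± 5.74% in G7 (SD, n = 3 each). The relative presence exceeded WT by 29.6 points in B10, the highest of the 31 windows of this chromosome, and by 14 points in G7. Of the 56 regions, 9 were kept through B10 alone, which lowers the share in the other lines. Of the 33 with a peak in at least 2 WT libraries, 32 had one in at least 2 B10 libraries and 28 in at least 2 G7 libraries. In relative presence, chromosome 5 lay above WT in both, by 20.7 points in B10 and 19.97 in G7, and so did chromosome 4, by 12.4 and 13.4 points. On chromosome 5, a peak was present in 68.8% of the regions in WT, 81.5% in B10 and 78.9% in G7. The rest of that chromosome had 82.0%, 74.0% and 72.1%, so part of the difference lies in the comparison regions. By this difference, the first windows of chromosomes 4, 5 and 17 ranked 1 in G7 among the windows of their chromosomes. On chromosomes 5 and 17, the rest of the chromosome also held fewer peaks in G7 than in WT. Regions kept through B10 alone or G7 alone numbered 16 and 9 on chromosome 5 and 29 and 22 on chromosome 4, which lowers the share in WT.

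Stretches with peaks in B10 and few in the other lines were not confined to chromosome starts. From 17 to 18 Mb of chromosome 1, 88.9% of 24 regions held a peak in B10, 13.9% in WT and 1.39% in G7. From 12 to 13 Mb of chromosome 9, all 3 WT and all 3 G7 libraries held 0 of 5 regions, and B10 held 4 to 5.

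**Figure D4:**
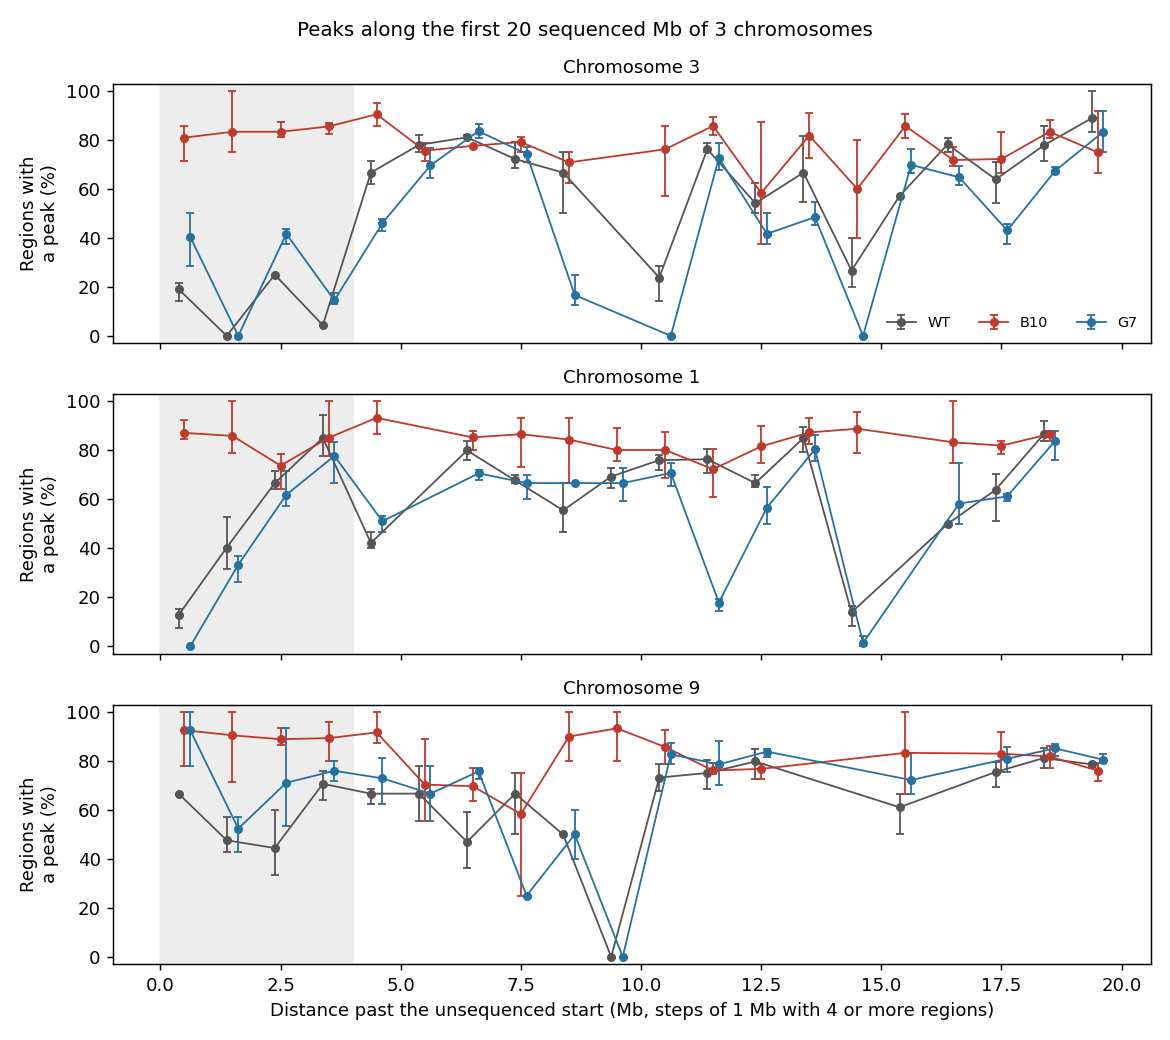
Share (%) of regions with a peak in steps of 1 Mb along the first 20 sequenced Mb of chromosomes 3, 1 and 9, with points for the mean of 3 libraries, bars for the lowest and highest library, and grey shading for the first 4 Mb. On chromosome 3, B10 stays above 80% inside the shading while WT and G7 lie lower.

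Over all chromosomes, the difference varied along the window. From 3 to 4 Mb (809 regions), the relative presence was −4.27 ± 0.710 in WT, 3.48 ± 1.42 in B10 and 0.769 ± 0.599 in G7. From 5 to 6 Mb (812 regions), it was 0.864 ± 0.624, 1.74 ± 0.587 and 0.337 ± 0.218 (SD, n = 3 each). Gains in both clones made up 5.19% of the regions from 3 to 4 Mb and 2.59% to 3.26% in the other steps of the window, against 2.93% of all regions. In the steps from 7 to 15 Mb this share was 2.23% to 3.62%, so only the first step stood apart. Beyond it, from 8 to 9 Mb, the relative presence was again lower in WT, with −2.48 ± 1.67 against 2.56 ± 0.367 in B10 and 1.55 ± 1.17 in G7. Other steps went the opposite way. From 11 to 12 Mb the means were 0.359 in WT, −2.14 in B10 and −3.19 in G7, and from 14 to 15 Mb it was 0.146 ± 0.876, −2.18 ± 1.82 and −6.75 ± 0.983 (SD, n = 3 each).

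Fold enrichment was then compared in regions with a peak in all 9 libraries, with limma over 46449 regions and Benjamini-Hochberg adjustment. Of the 1556 chromosome-start regions tested, 65 were stronger in B10 (4.18%, where 3.54% of all tested regions were called) and 38 weaker (2.44%, against 3.05%). In G7, 23 were stronger (1.48%, against 1.55%) and 20 weaker (1.29%, against 1.2%). Both clones were stronger in 17 (1.09%, against 1.07%) and weaker in 8 (0.514%, against 0.508%). These shares lay close to the background, most of all in G7. The median log2 difference from WT over the tested members was 0.0461 in B10 and 0.0290 in G7, against 0.0312 and 0.0250 over all tested regions. Relative to the rest of their chromosomes, members shifted by 0.0126 on the log2 scale in B10 (exact permutation p = 0.1, adjusted p = 0.15) and by 0.00375 in G7 (exact permutation p = 0.4).

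By window, the 17 first windows with enough tested regions had all 3 B10 libraries above all 3 WT libraries in 5 (12.7% of 568 windows) and below in 0 (13%), and all 3 G7 libraries above in 3 (8.98%) and below in 1 (10.4%). B10 lay above G7 in 3 (9.68%) and below in 0 (8.45%). Compared directly, 16 regions were stronger in B10 than in G7 (1.03%, against 0.693% of all tested) and 4 were weaker (0.257%, against 0.973%).

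Replicate numbers paired the libraries across lines, and with the replicate number as a block more regions passed. In B10, 161 were stronger (10.3%, against 9.35%) and 98 weaker (6.30%, against 7.51%), and in G7, 82 were stronger (5.27%, against 4.83%) and 57 weaker (3.66%, against 3.72%). Single libraries moved the counts of the fit without the block. Leaving out WT replicate 1 gave 6.83% stronger in B10 and 2.95% stronger in G7. Without WT replicate 2, 2.09% were stronger and 1.07% weaker in B10, and 0.948% stronger and 0.505% weaker in G7, and without WT replicate 3 these shares were 1.89%, 0.946%, 0.946% and 0.505%. Without B10 replicate 1, 2 or 3, 1.89%, 2.11% or 2.23% were stronger in B10. Without G7 replicate 2 or 3, 0.955% or 0.702% were stronger in G7, and without G7 replicate 3, 0.638% were weaker. With replicate 2 or 3 left out of every line, 0 regions passed with limma in either clone and direction, while at an unadjusted p under 0.05 there were 130 or 126 stronger and 92 or 88 weaker in B10, and 101 or 89 stronger and 79 or 53 weaker in G7.

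The regions gained in both clones with the highest q-value ranks, the place of a peak by its q-value among the peaks of its library, lay on 5 chromosomes. The region in an intron near Gm3636, chr14:6756093-6757637, held 16.9, 15.7 and 16.0 in B10 and 16.7, 17.1 and 15.9 in G7. That at the promoter of Gm3468, chr14:6107645-6109033, held 18.3, 19.4 and 17.7 in B10 and 15.1, 13.3 and 10.4 in G7. Neither had a peak in WT, and these are the only members on chromosome 14. Of 3 stretches of 32 bases searched in each, 1 occurs 19 times in the assembly in the first and 21 times in the second, so reads could come from another copy.

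In the other 4, each of 3 stretches of 32 bases was found once in the assembly. The 3′ UTR of Prkaa1, a catalytic subunit of the energy sensor AMPK, held a region at chr15:5181640-5182056, whose nearest coding start is that of Ttc33. It held 6.19, 7.22 and 5.71 in B10 and 6.49, 6.12 and 5.88 in G7. The intergenic region near Vmn1r3, a pheromone receptor gene, at chr4:3230651-3231376 held 9.47, 12.3 and 11.8 in B10 and 6.54, 9.51 and 11.8 in G7. A start site 17.6 kb from Ucma, a secreted protein of growth plate cartilage, at chr2:4957937-4959069 held 9.68, 12.5 and 10.3 in B10 and 13.4, 10.6 and 9.22 in G7. In chr3:6888115-6888864, 268 kb from 1700008P02Rik, B10 held 16.4, 19.8 and 17 and G7 held 9.87, 8.73 and 11.7. None of the 4 had a peak in WT, and the clones overlapped in all but the last.

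The regions lost in both clones with the highest q-value ranks in WT had no peak in any KO library. At chr13:3477710-3478654, within 3 kb of a noncoding start site and 59.9 kb from Gdi2, WT held 15.8, 14.5 and 15.3. The promoter of Castor1, an arginine sensor of the mTORC1 pathway, at chr11:4217841-4218654 held 6.17, 8.14 and 7.54. The promoter of Vip, which encodes the vasoactive intestinal peptide, at chr10:5639214-5639574 held 9.12 and 7.82 in WT replicates 1 and 2 and none in replicate 3.

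The region 16.2 kb from Zdhhc14, a palmitoyltransferase gene, at chr17:5476018-5476639 held 9.11, 9.31 and 9.87 in WT. In an intron of a noncoding gene, 37.96 kb from the start of Tiam2, which encodes a Rac exchange factor, chr17:3288458-3288777 held 4.05 and 3.63 in WT replicates 2 and 3. Near Rbfox1, a splicing factor gene, chr16:5881907-5882115 held 8.79, 9.31 and 8.92. In each of the 6 lost regions, the same 3 stretches were found once in the assembly. Losses in both clones were most frequent on chromosomes 11 and 16, with 21 of 333 (6.31%) and 11 of 176 (6.25%), against 4.37% of all regions, and 13 of 409 lay on chromosome 19.

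**Figure D5:**
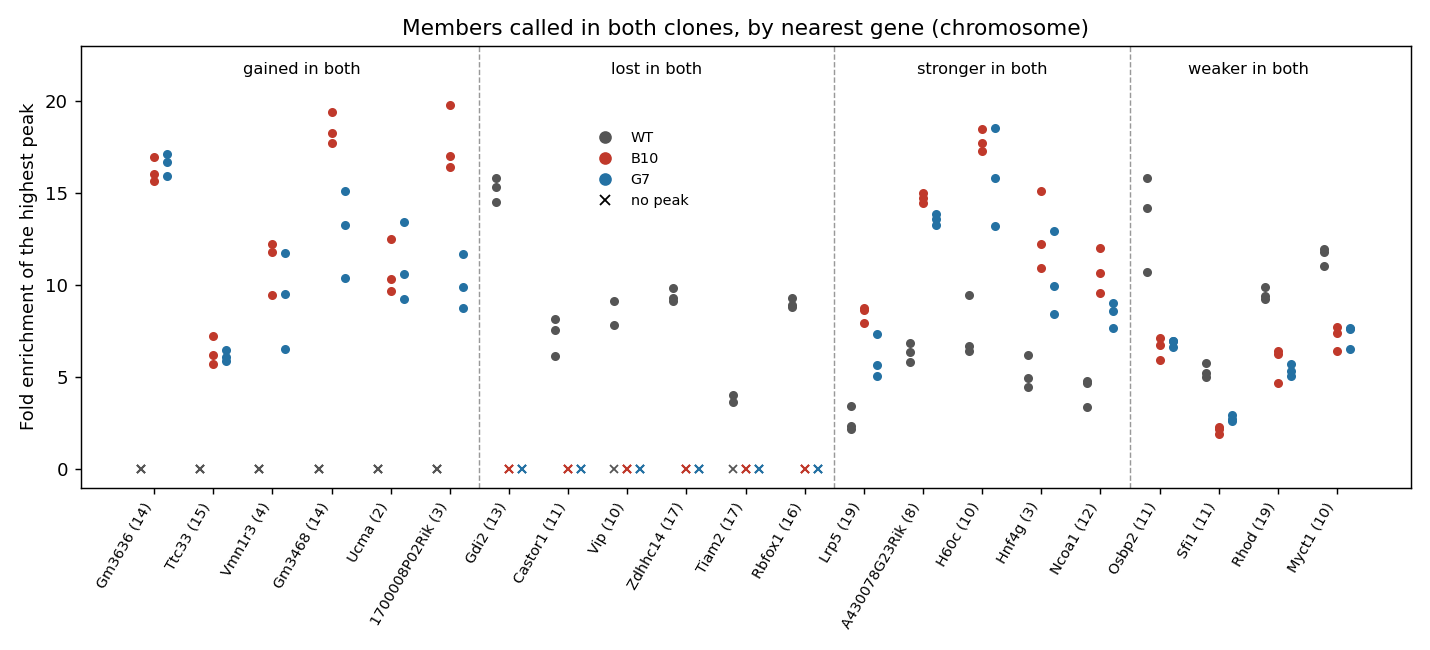
Fold enrichment of the highest peak in each library for regions gained, lost, stronger or weaker in both clones, named by the nearest coding gene with the chromosome in brackets, grey WT, red B10, blue G7, and a cross at 0 for lines with a library without a peak, with 4 of the weaker regions drawn. Regions of the first group have no WT peak, and those of the second no KO peak.

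The highest members stood in all 9 libraries at similar heights. In an intron 241 kb from the start of Ccdc3, chr2:5379042-5379376 held 39.97, 38.5 and 38.1 in WT, 39.3, 38.4 and 38.5 in B10 and 38.4, 36.9 and 37.8 in G7. The intergenic region chr6:3200769-3201590, 184 kb from Samd9l, held 39.9, 33.01 and 34.5 in WT, 30.9, 31.4 and 32.01 in B10 and 35.1, 31.2 and 34.7 in G7. The lines overlapped in both except that B10 lay below WT in the second.

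The member nearest to the sequenced start differed by chromosome. On chromosome 7, chr7:3058610-3059364 held 7.49, 5.24 and 5.73 in WT, 14.01, 10.1 and 9.72 in B10 and 7.84, 7.53 and 6.31 in G7, so that B10 lay above both other lines. On chromosome 6, chr6:3132289-3132629 held a peak in G7 only, at 4.07, 4.52 and 5.05. On chromosome 8, chr8:3068699-3069378 held 7.79, 7.99 and 7.13 in B10, 6.97 in G7 replicate 1 and no other peak. On chromosome 19, chr19:3204286-3205184 held a peak in all WT and G7 libraries and in B10 replicate 3 alone of that clone.

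Among regions open everywhere, those most changed in each direction in both clones were taken, 5 of which rose. An intron of Lrp5, a Wnt co-receptor needed for bone mass, held a region at chr19:3643524-3644246 with 3.44, 2.32 and 2.20 in WT, 8.64, 8.75 and 7.93 in B10 and 7.33, 5.68 and 5.05 in G7. All KO libraries lay above all WT libraries. The log2 difference by limma was 1.72 in B10 (adjusted p = 0.00194) and 1.29 in G7 (adjusted p = 0.0105). An intron of Ncoa1, a coactivator of nuclear receptors, rose at chr12:4367082-4367982 from 3.37, 4.66 and 4.78 in WT to 9.57, 12.03 and 10.6 in B10 and 9.03, 7.65 and 8.57 in G7, a log2 difference of 1.36 and 1.09. The others lay in an intron of A430078G23Rik (1.24 and 1.20), near H60c, a ligand of the NKG2D receptor (1.29 and 1.18), and 205 kb from Hnf4g (1.31 and 1.09).

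Among the regions that fell in both clones was 1 in an intron of Osbp2, an oxysterol-binding protein. At chr11:3738573-3739243, WT held 10.7, 14.2 and 15.8, B10 5.92, 6.76 and 7.13, and G7 6.97, 6.63 and 6.94. All KO libraries lay below all WT libraries here. The log2 difference was −1.01 in B10 (limma adjusted p = 0.00496) and −0.87 in G7 (adjusted p = 0.0154). The others described here were the promoters of Sfi1, a centrosome protein (−1.31 and −0.85), and Rhod, a small GTPase (−0.72 and −0.74), and a promoter region of Myct1 (−0.68 and −0.58). Of these 4 windows, 3 hold TGANTCA, as the printed sequences show, the exception being Sfi1. Of all regions, 22.3% held it, and its share among all weaker regions was not counted.

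Most genes of the lists chosen for their place near chromosome starts kept open promoters. The chromatin list comprised 15 genes, 14 of which had a promoter region, and all 14 held a peak in all 9 libraries, among them Suv39h2, which methylates H3K9 in pericentromeric heterochromatin, and Dnmt3a, a DNA methyltransferase. None of these 14 promoters passed the limma test in either clone. At the promoter of Suv39h2 the mean fold enrichment was 16.4 ± 1.40 in WT, 18.5 ± 1.46 in B10 and 16.3 ± 0.376 in G7 (SD, n = 3). The list had 86 regions in and around its genes, of which 6 were gained in B10 (6.98%, against 10.4% of all regions), 6 in G7 (6.98%, against 5.61%) and 3 in both (3.49%, against 2.93%). Losses were 2 in B10 (2.33%, against 7.59%), 3 in G7 (3.49%, against 7.43%) and 0 in both (against 4.37%).

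Of 21 genes of the mesenchymal, matrix and lineage list, 17 had a promoter region, open in all 9 libraries for each. The promoter of Pdgfd, a ligand of the PDGF receptor beta, at chr9:6168069-6169214 stood out. It held 13.1, 15.3 and 15.9 in WT, 7.47, 5.53 and 5.18 in B10 and 20.2, 14.5 and 16.4 in G7. B10 lay below all other libraries, while G7 overlapped WT. The log2 difference was −1.28 in B10 (limma adjusted p = 0.00283) and 0.29 in G7 (adjusted p = 0.429), and B10 differed from G7 by −1.57. Among the 135 regions of the list, 8 were gained in B10 (5.93%, against 10.4% of all regions), 9 in G7 (6.67%, against 5.61%) and 4 in both (2.96%, against 2.93%). Losses were 2 in B10 (1.48%, against 7.59%), 4 in G7 (2.96%, against 7.43%) and 2 in both (1.48%, against 4.37%). Of the 76 tested, 4 were stronger in B10 (5.26%, against 3.54%) and 2 weaker (2.63%, against 3.05%), with 1 stronger (1.32%, against 1.55%) and 1 weaker (1.32%, against 1.2%) in G7.

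Of 13 genes of metabolism and fat, 12 had a promoter region, open in all 9 libraries for all but Hnf4g. The promoter of Selenop, a selenium transport protein, at chr15:3270120-3271046 held 19.7, 19.1 and 19.9 in WT, 16.8, 18.5 and 18.3 in B10 and 13.8, 9.62 and 12.4 in G7. G7 lay below both other lines, with a log2 difference of −0.63 from WT (limma adjusted p = 0.0153), against −0.12 in B10 (adjusted p = 0.561). A promoter region of Adcy3, an adenylyl cyclase, at chr12:4157672-4158484 differed by −0.81 in G7 (adjusted p = 0.0439) and −0.45 in B10 (adjusted p = 0.168). Around Ghr, the growth hormone receptor gene, 6 of 23 regions were gained in B10 (26.1%, against 10.4% of all regions) and 3 in G7 (13.04%, against 5.61%). An exon region of the gene at chr15:3544116-3545003, open in all libraries, rose by 0.67 in B10 (adjusted p = 0.00394) and 0.69 in G7 (adjusted p = 0.00606). The list had 64 regions, with 9 gained in B10 (14.1%, against 10.4%) and 6 in G7 (9.38%, against 5.61%), and with 1 lost in B10 (1.56%, against 7.59%) and 2 in G7 (3.12%, against 7.43%). Ghr alone gave 6 of the 9 gained in B10 and 3 of the 6 gained in G7, so the gains were not spread over the list.

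Imprinted genes, which are expressed from 1 parental copy, were open in fewer libraries. Of 10 genes, 7 had a promoter region and 2 of these, Ppp1r9a and Pon2, were open in all 9 libraries. At the start of Sgce and Peg10, neighbouring paternally expressed genes on chromosome 6, B10 held peaks that WT lacked. The region chr6:4746649-4747360 held 9.72, 9.51 and 9.23 in B10 and none in WT or G7. The region chr6:4749078-4749460 held 7.54, 9.85 and 8.53 in B10, 3.61 in G7 replicate 2 and none elsewhere. The region chr6:4740286-4741172 was present in all lines, with 7.16 and 3.18 in WT replicates 1 and 3, 17, 20.3 and 15.4 in B10 and 12.2, 9.34 and 7.88 in G7. At Peg3 and Usp29, on chromosome 7, chr7:6728284-6728814 held 3.58 and 3.49 in WT replicates 1 and 2 and no peak in the KO libraries. The promoter of Ppp1r9a rose by 0.36 in B10 (limma adjusted p = 0.0160) and differed by 0.25 in G7 (adjusted p = 0.102). In all, 5 of 18 regions were gained in B10 (27.8%, against 10.4% of all regions), 1 in G7 (5.56%, against 5.61%) and 1 in both (against 2.93%). The same number, 2, was lost in B10, in G7 and in both (11.1%, against 7.59%, 7.43% and 4.37%). Of the 5 gained in B10, 4 lay at Sgce and Peg10, and both lost regions lay at Peg3 and Usp29. These shares thus rest on few loci.

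Of 20 genes of cell cycle, signalling and RNA, 17 had a promoter region and 15 of these were open in all 9 libraries. A promoter of Esr1, the estrogen receptor alpha gene, at chr10:4709758-4710367 was gained in both clones, with 3.74, 4.30 and 5.18 in B10 and 4.36, 7.83 and 6.31 in G7. Around Syne1, which encodes the nuclear envelope protein nesprin-1, 2 of 28 regions were gained (7.14%, against 10.4% of all regions) and 3 lost (10.7%, against 7.59%) in B10, and 2 were gained (7.14%, against 5.61%) and 0 lost (against 7.43%) in G7. The lost ones included chr10:5535242-5535980, with 5.86, 6.69 and 7.32 in WT, none in B10 and 4.07, 3.31 and 6.31 in G7. Around Cdk14, a cyclin-dependent kinase gene, 8 of 34 regions were gained in B10 (23.5%, against 10.4%) and 3 in G7 (8.82%, against 5.61%), and 0 were lost in either. The list had 145 regions, with 14 gained in B10 (9.66%, against 10.4%) and 10 in G7 (6.90%, against 5.61%), and with 6 lost in B10 (4.14%, against 7.59%) and 5 in G7 (3.45%, against 7.43%).

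The sequence edge at chromosome 9 is a repeat of the major satellite kind. In the first 40 kb, 69.4% of bases were identical to the base 234 bp further on. The repeat was searched for in all consensus regions through shared stretches of 25 bases. In 4 regions at least 50% of stretches were shared, and all 4 are chromosome-start regions, 3 of them on chromosome 9. The fourth, chr12:3109872-3110113, shared 87.2%, and its middle stretch was found 43 times in the assembly.

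Open chromatin was called over this repeat in every library. The widest regions, chr9:3000039-3008716 and chr9:3011490-3038208, held 17.7 to 20.4 and 11.9 to 14.6 fold enrichment over the 9 libraries. Peaks covered 31.98 ± 0.325 kb of the block in WT, 34.7 ± 1.65 kb in B10 and 33.4 ± 1.31 kb in G7 (SD, n = 3). B10 exceeded WT by 2.68 kb (exact permutation p = 0.1, adjusted p = 0.3) and G7 by 1.45 kb (exact permutation p = 0.3, adjusted p = 0.4). The highest fold enrichment in the block was 18.3 ± 0.919 in WT, 19.6 ± 1.39 in B10 and 18.4 ± 0.472 in G7, and the lines overlapped. How the aligner placed reads that match many copies is not given in the sources used here, so these values describe where such reads were placed, and the arrays outside the assembly were not measured.

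At the sequenced edge of chromosome 3, peaks covered 1.35, 1.87 and 1.73 kb in WT, 6.18, 7.40 and 6.05 kb in B10 and 8.10, 9.27 and 4.49 kb in G7. All 6 KO libraries lay above all 3 WT libraries, with an exact permutation p of 0.1 for each clone (adjusted p = 0.15). B10 and G7 overlapped. The number of peaks there was 1 to 3 in WT, 6 to 9 in B10 and 3 to 10 in G7. By this number G7 overlapped WT (exact permutation p = 0.2, adjusted p = 0.3), while B10 lay above it (p = 0.1, adjusted p = 0.3). The first region, chr3:3000349-3004560, was gained in both clones, with 5.41, 4.65 and 5.51 in B10 and 5.77, 4.82 and 6.58 in G7.

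In GC content and width, the chromosome-start regions lay near the rest of their chromosomes. Promoters, within 3 kb of a start site, made up 35.5% of them against 30.6%, introns 28.6% against 32.9% and intergenic sequence 31.0% against 31.4%. The median GC content at the summit was 49.0% against 49.5%, and the median width was 688 bp against 664 bp. The median distance to a coding start site was 13.8 kb against 15.4 kb over all regions pooled, but 24.99 kb against 15.6 kb when the medians of the chromosomes were averaged with the number of chromosome-start regions as weight. Regions with a peak in all 9 libraries were promoters in 46.0%, those gained in both clones in 26.9% and those lost in both in 27.5%. Regions gained in both clones were narrower, at a median of 568 bp against 924 bp for those open everywhere, and lay farther from a coding start site, at 25.4 kb against 7.98 kb. Regions lost in both had a median width of 383 bp.

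The 200 bp around each summit were searched on both strands for exact motif matches. TGANTCA was found in 21.9% of the chromosome-start regions, in 22.2% of the rest of the same chromosomes and in 22.3% of all regions. It was found in 17 of the 108 regions gained in both clones (15.7%) and in 30 of the 91 lost in both (33.0%). Of regions gained in B10 it was found in 14.96%, and for G7 this share was 15.3%. CTTTGT was found in 16.3%, against 17.2% and 17.4%, and in 26.6% of those gained in B10. For gains in G7 the share was 18.5%, for gains in both 22.2% and for losses in both 17.6%. The core of the CTCF site, the motif of the factor that anchors chromatin loops, was found in 12.5%, against 13.6% and 13.3%, and in 4 of the 108 gained in both (3.70%). For gains in B10 the share was 3.60%, for gains in G7 11.1% and for losses in both 9.89%. The core of the CENP-B box, which marks minor satellite, was found in 0 chromosome-start regions and in 20 of all regions (0.0210%). These are descriptions with no test, and a match is not a bound site.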

How the data were processed

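ATAC-seq libraries of WT, B10 and G7 cells (3 each) were analysed. Per the methods of the study, the authors aligned paired reads to mm10 with Rsubread after Rfastp and called peaks per replicate with MACS2 in paired-end mode. The version of MACS2 and the treatment of reads with several matches are not given in the sources used here, and removal of blacklisted regions is stated only for another assay. The deposited lists give each peak a fold enrichment (a ratio of signal to background), a −log10 p-value, a −log10 q-value and a display score, all made by the authors. The score and the −log10 p-value were not used. The lists hold no counts, so the count test of the study could not be run and depth is unknown.

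Peaks of chromosomes 1 to 19 were merged where they overlapped or touched, and regions were kept with a peak in at least 2 of 3 libraries of a line. Samples were grouped by title. For presence, libraries were permuted exactly between lines (two-sided). Fold enrichment of the highest peak was taken on the log2 scale, centred on the median of each library, and fitted with limma 3.58.1 in R 4.3.3 over 46449 regions with a peak in all 9 libraries, with an adjusted p of 0.05 as threshold. The fit was tested on simulated data. Annotation was GENCODE M21, and a region took the gene with the nearest coding start site. Libraries with the same number deviated together (correlation 0.241 to 0.590 over regions), so the numbers pair the libraries, and the fit with a replicate block is given beside the other. Peaks with identical ends made up at most 0.382% between any pair of libraries.

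The regions and gene lists were chosen with earlier results of these data known. The genes named are those lists, the 6 regions gained and the 6 lost in both clones with the highest ranks by q-value within a library (the lowest such rank among the libraries with a peak), the 5 stronger and the 5 weaker in both with the largest differences (1 of the latter is not reported here), the first region of each chromosome, the 5 highest, and regions at the 7 Mb limit; further regions of chromosomes 1, 3, 6 and 9 and the satellite repeat were chosen after their values were seen. Other limits, filters, thresholds, scales, an equal number of peaks and libraries left out were tried.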

Additional observations from a re-analysis of the deposited data

Results flagged for a closer look

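Several results differed between the clones, and no explanation was tested. On chromosome 17, the relative presence of the chromosome-start regions differed from WT by −3.15 points in B10, with all 3 libraries below all 3 WT libraries, and by 8.99 points in G7, with all 3 above. The share of these regions with a peak was higher in both clones, at 75.0% in WT, 80.7% in B10 and 79.7% in G7 on average. On the rest of the chromosome it was 74.2%, 83.0% and 69.8%, so the opposite signs come from the comparison regions. The opposite direction of the relative presence was not itself tested.

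By limma over all tested regions with Benjamini-Hochberg adjustment, 16 chromosome-start regions had a higher fold enrichment in B10 than in G7 and 4 a lower one. In listed genes or within 3 kb of them these were the Pdgfd promoter (log2 difference −1.57), an intron of Zeb1, a transcription factor of mesenchymal state (0.55), the promoter of Selenop (0.52), a region beside Rela whose centre lay 3.22 kb from the start of Sipa1, a GTPase-activating protein gene (0.58), and a 3′ UTR region of the kinase gene Lyn (0.42). In the regions of Selenop and Sipa1, G7 lay below WT and B10, and at Zeb1, B10 lay above both other lines. The largest difference upward was at the promoter of Rgs17, a regulator of G protein signalling, at chr10:5921818-5922999, with 13.1, 15.01 and 14.2 in B10 and 3.78, 6.02 and 5.68 in G7 (log2 difference 1.40, adjusted p = 0.00458). Farther from listed genes, regions nearest to Lif (chr11:4276229-4277090, 1.29) and Ghr (chr15:3603274-3604270, 0.56, and chr15:3648194-3648991, −0.93) also differed. Groups of 3 libraries are too small for a search for outlying libraries.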

How the results depend on the processing

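Over 21 results and 32 settings, 458 of 534 recomputed values counted as unchanged, 73 moved and 3 reversed. For relative presence and the median strength shift, unchanged meant the same direction and the same side of the p threshold. Their size was not classed, so they could not show a move in size. In relative presence, B10 minus WT ranged from 3.11 to 9.17 points (main value 4.69), all counted as unchanged. B10 minus G7 reached 4.97 points (main value 1.32), also counted as unchanged. For the other results, unchanged meant the same direction and size class. The settings without chromosome 3, without chromosomes 1 and 3, with equal weights and with regions of WT libraries only were chosen after seeing the data. Reversed were B10 minus G7 in relative presence without chromosomes 1 and 3 (−0.227, exact permutation p = 0.7), the median strength shift of G7 with log2 of −log10 q (−0.0210) and that of B10 against G7 for regions below 5 Mb (−0.00366). In the following lists, shares are percent gained or lost among the 3090 regions, or stronger or weaker among those tested. With the replicate block, 10.3% were stronger and 6.30% weaker in B10, and 5.27% and 3.66% in G7. For relative presence the block could not change the side of the threshold either, since the exact sign-flip p of 0.25 is the smallest 3 pairs allow. With log2 of −log10 q the stronger and weaker shares, in the same order, were 9.77%, 4.56%, 5.40% and 3.66%. Without centring, 2.44% were weaker in G7. With a consensus from all 3 libraries, B10 gained 7.35% and lost 1.88%, G7 gained 4.16% and lost 2.65%, and both lost 1.02%. With presence in 3 of 3 libraries, B10 gained 5.24% and lost 1.39%, G7 gained 2.65% and lost 1.85%, and both gained 1.33% and lost 0.809%. With peaks that cover at least 50% of a region, 2.45% were stronger in B10 and 0.634% in G7, and B10 lay below WT on 0 chromosomes and G7 on 1. B10 lay below WT on 1 chromosome for regions below 5 Mb and on 0 at a −log10 q of at least 5.

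With 1 library or 1 replicate number left out, gains ranged from 6.79% to 17.7% in B10, from 4.08% to 11.1% in G7 and from 2.32% to 6.95% in both, and losses from 2.19% to 7.65%, from 2.80% to 7.79% and from 1.35% to 3.57%. Strength calls ranged from 0% to 7.47% stronger and from 0% to 4.50% weaker in B10, and from 0% to 3.39% and from 0% to 2.28% in G7. The calls then rest on 2 libraries, which changes the rule of a gain or loss. Shares over all regions under these settings are not given, and the cause was not tested further. Relative presence ranged from 4.32 to 5.36 points in B10 and from 2.96 to 4.11 in G7. The lists give no depth, so a missing peak may be a weak one, and fold enrichment cannot be turned into reads.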
